A study of Drosophila melanogaster with 20 samples.

Results

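The comparison was between inbred fly lines after an acute heat shock, 9 in all, with the lines as replicates. The 4 lines classed as beneficial were RAL69, RAL93, RAL359 and RAL387, and the 5 classed as detrimental were RAL195, RAL304, RAL335, RAL737 and RAL819. These 9 heat shock libraries were chosen by the line and treatment in their labels out of 20 libraries, and the same 9 lines without heat shock served as the background. All are lines of the Drosophila Genetic Reference Panel (DGRP), derived from wild-caught flies, and each line has its own fixed genotype with no transgene named. The class names the outcome of stress preconditioning in an earlier screen of these lines. Every library came from 1 pool of 10 male flies, whole bodies, aged 2 days, reared at 25 °C and kept for 48 hours without CO2. The heat shock lasted 30 minutes at 35 ± 1 °C, and flies were frozen directly after it, together with the untreated flies. RAL409, labelled beneficial, was left out by the submitters as an outlier of a principal component analysis, and its values stand beside the others here without entering a test. Because each line gave 1 pool per treatment, a p-value below measures the spread between lines and cannot separate a line's genotype from its pool.

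Preconditioning is the change in tolerance to a severe stress that follows a milder one. Misfolded proteins in the cytosol release the factor Hsf, which drives the Hsp70 and small heat shock protein genes, while misfolded proteins in the endoplasmic reticulum (ER) activate the sensors Ire1, PEK and Atf6 of the unfolded protein response. Histone methyltransferases and demethylases set marks on chromatin that accompany gene activation or silencing. Flies also answer stress and infection with secreted peptides made largely in the fat body: the Toll pathway drives the Bomanin and Daisho peptides, and the Imd pathway drives diptericins and attacins.

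The class difference after heat shock was small for most genes. Among 12615 genes with a mean of at least 1 CPM (normalised counts per 1e+06 counts), the median absolute class difference was 0.11 on the log2 scale. The median SD between lines of a class was 0.22 in both classes. None of 13877 genes passed an adjusted p of 0.05 in edgeR's quasi-likelihood test (0% called, smallest adjusted p 0.513). Most genes below are therefore given with a standard error (SE) or a 95% interval. At an unadjusted p under 0.05 there were 267 genes higher (1.92%) and 344 lower (2.48%) in beneficial lines. Together they were 4.4% of the genes tested, where chance gives about 1 in 20. Limma-voom also called 0 genes, with 599 at an unadjusted p under 0.05, whereas DESeq2 called 11, 2 higher and 9 lower. In 107 genes (0.771%) every beneficial line lay above every detrimental line, and in 97 (0.699%) every beneficial line lay below. Lines shuffled between the classes show each pattern with a probability of 0.00794, and neither share exceeded that. A gene without overlap is therefore no sign of a class difference by itself. The median half-width of the 95% interval of a class difference was 0.37 on the log2 scale.

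Library totals were 28.2 to 33.7 M counts in the beneficial lines and 18.4 to 28.8 M in the detrimental lines (M, 1e+06; two-sided exact permutation p = 0.0635 over 126 splits of the lines). On principal components of the 9 libraries, RAL304 lay apart at 53.9 on the first (16.65% of the variance) and RAL819 at 54.0 on the second (15.42%). Neither component separated the classes, and correlations between libraries ran from 0.959 to 0.975 between classes, against 0.965 to 0.974 within the beneficial and 0.958 to 0.968 within the detrimental lines.

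The authors' deposited table of this comparison held 15 genes with an adjusted p under 0.05 (0.1% of 14927), of which 5 were higher and 10 lower in beneficial lines. At the threshold of 0.1 the authors' deposited table held 26 genes (0.174%), 9 higher and 17 lower. All 11 genes called by DESeq2 here were among the 15. Of the 26 genes, 24 passed the filter on low counts used here, and all 24 had an unadjusted edgeR p under 0.05. In 18 of the 26, and in 11 of the 15, the classes did not overlap. These genes were chosen on the same libraries, so the counts describe them and are no separate evidence of a class difference.

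**Figure D1:**
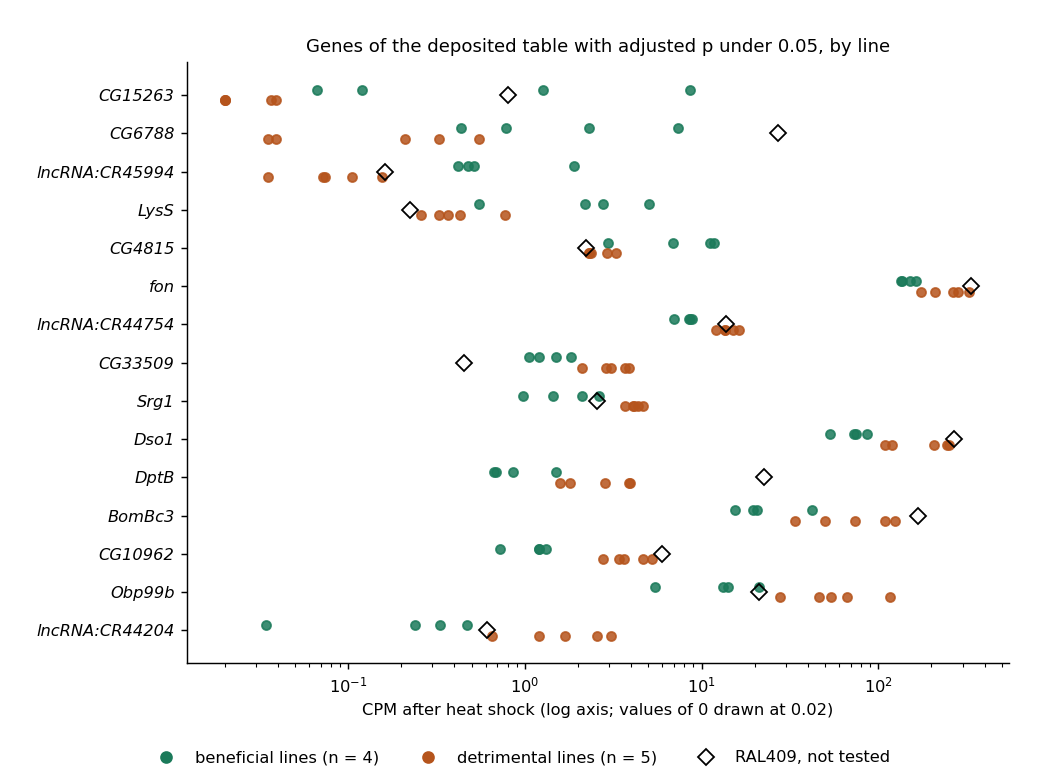
Normalised counts per 1e+06 counts (CPM) after heat shock (log axis) of the 15 genes with an adjusted p under 0.05 in the authors' deposited table, with 1 point per line. The classes do not overlap in 11 of the 15 genes, and RAL409 (open diamonds) lies beyond every other line for genes such as DptB and CG6788.

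The genes that the authors' deposited table called lower in beneficial lines included the immune peptide genes Dso1, BomBc3 and DptB. Dso1, the Toll-induced antifungal peptide Daisho 1, stood at 74.3 CPM in RAL69, 73.0 in RAL93, 53.4 in RAL359 and 86.7 in RAL387. The detrimental lines had 120 CPM in RAL195, 244 in RAL304, 206 in RAL335, 109 in RAL737 and 250 in RAL819. Every beneficial line was thus below every detrimental line, and Dso1 differed by -1.37 on the log2 scale (SE 0.27, edgeR adjusted p = 0.999). In the authors' deposited table its adjusted p was 0.00093. Dso1 was also apart without heat shock, where the difference was -1.08. Dso2, the related Daisho peptide gene, ranged from 7.97 to 16.6 CPM in beneficial and from 14.1 to 37.1 CPM in detrimental lines, with overlap, and differed by -1.15 (SE 0.30).

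BomBc3, a Bomanin peptide gene, had 20.5 CPM in RAL69, 19.6 in RAL93, 15.4 in RAL359 and 42.2 in RAL387, against 125 in RAL195, 49.7 in RAL304, 73.9 in RAL335, 33.6 in RAL737 and 109 in RAL819. RAL387 and RAL737 were the lines that overlapped, and the difference was -1.68 (SE 0.42). DptB encodes diptericin B, an Imd-driven peptide against Gram-negative bacteria. It stood at 1.51 CPM in RAL69, 0.859 in RAL93, 0.670 in RAL359 and 0.688 in RAL387, below the 1.58 CPM of RAL195, 2.84 of RAL304, 3.95 of RAL335, 3.89 of RAL737 and 1.81 of RAL819. The classes did not overlap for DptB, although RAL69 and RAL195 were close, and the difference was -1.60 (SE 0.38). Without heat shock the order was not kept, since RAL69 then had 22.9 CPM and RAL819 11.4, and the DptB difference was 0.51 (SE 0.96).

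RAL409 stood on the other side for these peptides. After heat shock it had 269 CPM of Dso1, 169 of BomBc3, 42.3 of Dso2 and 22.6 of DptB, above each of the other 9 lines. With RAL409 counted as a further beneficial line the Dso1 difference was -0.74, the BomBc3 difference -0.56 and the DptB difference 0.90, and none of them had an unadjusted p under 0.05.

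Across the Bomanin, Daisho and Baramicin genes, all 15 tested had a lower mean in beneficial lines, with a median difference of -1.12, against -0.004 over all genes tested. Of the 15, 8 had an unadjusted p under 0.05, all lower, against 2.48% of all genes tested. Dso1 alone had no overlap between classes, a pattern that 0.699% of all genes had in that direction. BomBc1 had the largest difference, -2.24 (SE 0.88). It stood at 2.26 to 3.95 CPM in RAL69, RAL93 and RAL359 but at 24.5 CPM in RAL387, and from 9.99 CPM in RAL737 to 75.6 in RAL819. BaraA1, which encodes the Baramicin precursor, ran from 29.0 to 93.9 CPM and from 47.8 to 295 CPM (-1.33, SE 0.47). BomS6 was the member nearest to 0, at -0.02, and it turned positive when libraries were scaled by their totals only. The summed level of the list was 354 to 820 CPM in the beneficial lines, 644 to 1484 CPM in the detrimental lines and 1701 CPM in RAL409. Without heat shock all 15 were lower as well, with a median of -0.68. The median depended on single lines: it was -0.82 without RAL304 and -0.46 without both RAL304 and RAL819. With RAL409 as a beneficial line it was -0.48 and no member had an unadjusted p under 0.05. The number of members with an unadjusted p under 0.05 was 5 without RAL69, 5 without RAL819 and 12 without RAL387.

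**Figure D2:**
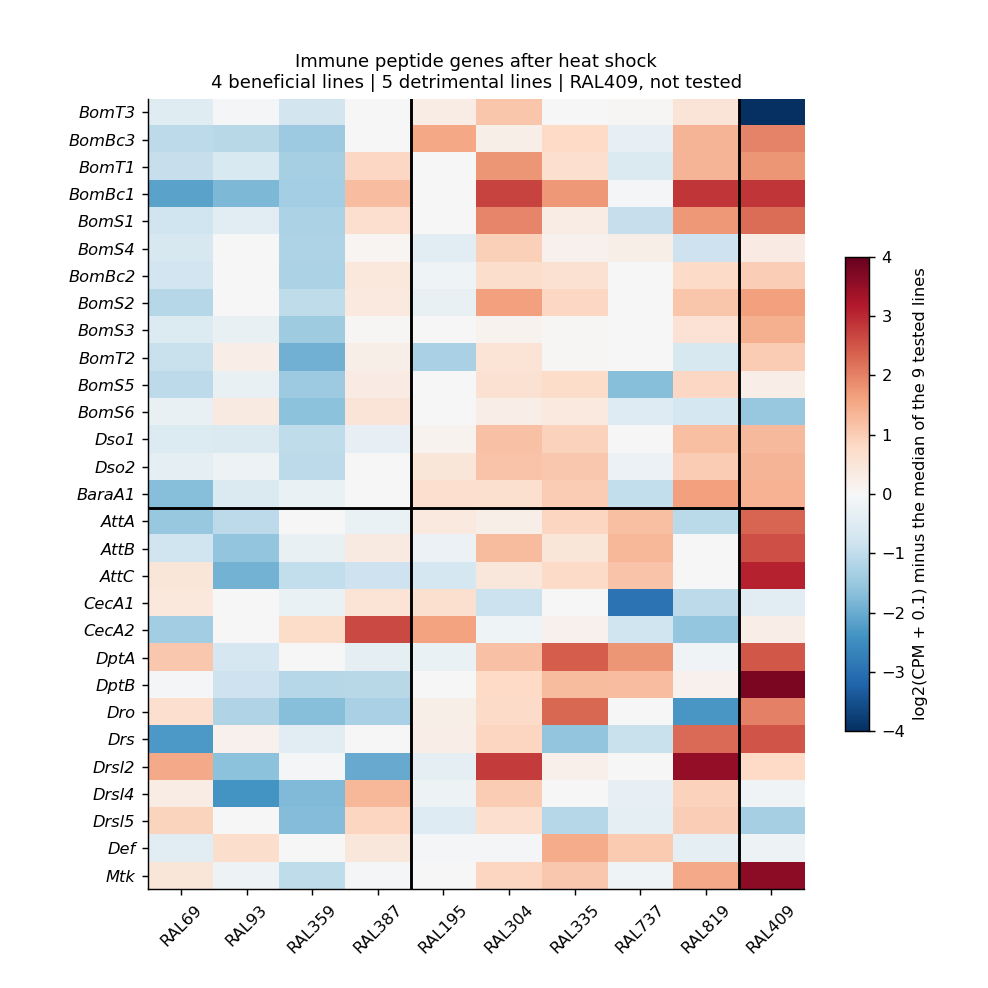
Level of each tested Bomanin, Daisho and Baramicin gene (upper block) and antimicrobial peptide gene (lower block) after heat shock, as log2(CPM + 0.1) minus the median of the 9 tested lines; colours end at 4 in both directions. Most cells of the beneficial lines are blue or pale in the upper block, RAL304 and RAL819 are the reddest of the tested lines, and RAL409 is red for most genes.

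Of 14 tested antimicrobial peptide genes, 11 had a lower mean in beneficial lines (median -1.10), and 4 had an unadjusted p under 0.05: DptB, AttB, AttA and Mtk, against 2.48% of all genes in that direction. AttB and AttA encode attacins, Imd-driven peptides, and differed by -1.16 (SE 0.47) and -1.18 (SE 0.51). AttA ranged from 0.342 to 1.17 CPM in beneficial and from 0.507 to 2.84 CPM in detrimental lines, so the classes overlapped. Drs, the Toll-driven antifungal peptide drosomycin, ran from 4.79 to 27.1 CPM and from 7.93 to 116 CPM (-1.18, SE 0.75). The cecropin genes CecA1 and CecA2 lay on the other side of 0, at 0.62 (SE 0.53) and 1.04 (SE 0.89). With RAL409 as a beneficial line the median of the list was 0.06, with 7 members on each side of 0. Without RAL93 and without RAL304, 1 member had an unadjusted p under 0.05 in each case. Without heat shock 9 of 14 tested members were lower, with a median of -0.39.

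The receptors and signalling proteins upstream of these peptides differed less. Of 26 Imd and Toll regulators, 17 were lower and 9 higher, with a median of -0.11, or -0.059 without RAL359. At an unadjusted p under 0.05 there were 2 lower and 1 higher, against 2.48% and 1.92% of all genes. PGRP-SD, a secreted peptidoglycan sensor, had 2.87 to 5.08 CPM in beneficial and 5.56 to 7.89 CPM in detrimental lines, with no overlap (-0.79, SE 0.21). PGRP-SB1, an amidase induced by infection, differed by -0.94 (SE 0.37), and PGRP-SC1b, an amidase that scavenges peptidoglycan in the gut, by 1.44 (SE 0.56). RAL409 had 14.4 CPM of PGRP-SD and 26.4 CPM of PGRP-SB1, above all 9 lines, and with it as a beneficial line the differences were -0.19 and -0.13. Without RAL304 the PGRP-SB1 difference was -0.58. Rel, the NF-kappaB factor of the Imd pathway, differed by 0.02 (SE 0.15), and the Toll pathway factors Dif and dl by -0.11 and -0.13. Of 14 tested Turandot, JAK-STAT and thioester protein genes, 11 were lower (median -0.48; -0.28 without RAL93 and -0.29 without RAL387). Tep1, a thioester protein of the complement type, was at 0.134 to 0.718 CPM in beneficial and 0.833 to 1.67 CPM in detrimental lines, without overlap (-1.58, SE 0.43). Socs36E, a feedback inhibitor of JAK-STAT signalling, differed by -0.57 (SE 0.25), and by -0.32 without RAL737.

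Markers of blood cells lay on the same side of 0. All 15 tested hemocyte markers had a lower mean in beneficial lines (median -0.31). Of them 2 had an unadjusted p under 0.05, against 2.48% of all genes, and their summed level was 1149 to 1503 CPM against 1252 to 2002 CPM. The scavenger receptor gene Sr-CI differed by -0.82 (SE 0.26) and the peroxidasin gene Pxn by -0.54 (SE 0.23), or -0.34 without RAL304. The median was -0.16 without RAL335, likewise -0.16 without RAL69, and -0.49 without RAL387. Lower means were not particular to blood cells. Malpighian tubule markers were lower in 13 of 13 (median -0.15) and neuron markers in 13 of 15 (median -0.12). Testis markers were higher in 21 of 27 and midgut digestive enzymes in 33 of 47. Of 12 tested fat body markers, 7 were lower and 5 higher (median -0.07), with differences from -1.79 to 0.87. The lower side held 2 with an unadjusted p under 0.05, against 2.48% of all genes, and the higher side 0. These were fit, a satiety peptide, at -1.79 (SE 0.59) and the storage protein gene Lsp2 at -1.69 (SE 0.75). Lsp2 stood at 18.8 CPM in RAL304 and at 1.76 to 4.90 CPM in the other detrimental lines, and its difference was -0.75 without RAL304. The fat body median was 0.037 without RAL304, and the fit difference was -1.02 without both RAL304 and RAL819. Fewer cells of a type and less RNA per cell cannot be told apart in whole bodies, and the part of blood or fat body cells in the peptide differences was not tested. The gene fon, whose product Fondue takes part in hemolymph clotting, had 134 CPM in RAL69, 136 in RAL93, 163 in RAL359 and 152 in RAL387. The detrimental lines had 175 CPM in RAL195, 281 in RAL304, 328 in RAL335, 265 in RAL737 and 208 in RAL819, all higher. The fon difference was -0.78 (SE 0.17), but RAL409 was at 337 CPM, above every other line.

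The gene with the smallest p was CG10962, with 1.20 CPM in RAL69, 0.721 in RAL93, 1.21 in RAL359 and 1.32 in RAL387. The detrimental lines had 3.43 CPM in RAL195, 3.66 in RAL304, 5.21 in RAL335, 4.68 in RAL737 and 2.75 in RAL819. Every beneficial line lay below every detrimental line, and the CG10962 difference was -1.83 (SE 0.27, edgeR adjusted p = 0.513). In the authors' deposited table its adjusted p was 3.1e-05. CG10962 lies inside rdgA on the other strand and inside lncRNA:CR43836 on its own strand. Under any strand setting reads could be shared with lncRNA:CR43836, which differed by -0.74 (SE 0.38). The strand setting of the counting was not stated, so sharing of reads with rdgA could not be judged. RAL409 had 5.98 CPM of CG10962, above all 9 lines, and with it as a beneficial line the difference was -0.92, with an unadjusted p no longer under 0.05.

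Obp99b, an odorant-binding protein gene of a family of small secreted carriers, had 21.1 CPM in RAL69, 5.46 in RAL93, 13.2 in RAL359 and 14.1 in RAL387. The detrimental lines had 27.9 CPM in RAL195, 53.7 in RAL304, 66.9 in RAL335, 46.2 in RAL737 and 116 in RAL819. The classes were apart by -2.22 (SE 0.45), and RAL409, at 21.2 CPM, lay between them. Without heat shock RAL359 had 73.9 CPM and the Obp99b classes overlapped (-1.20, SE 0.76). Of 37 tested odorant-binding protein genes, 25 were lower and 12 higher, with a median of -0.07 (-0.17 without RAL387 and -0.002 without RAL359), and Obp99b was the member with no overlap between classes.

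The noncoding RNA lncRNA:CR44754 was at 8.52 CPM in RAL69, 8.83 in RAL93, 6.97 in RAL359 and 8.56 in RAL387, and at 12.1 in RAL195, 13.5 in RAL304, 13.6 in RAL335, 14.99 in RAL737 and 16.2 in RAL819. Both classes were tight and apart (-0.78, SE 0.12, edgeR adjusted p = 0.513). Without heat shock the lncRNA:CR44754 classes overlapped, with a difference of -0.28 (SE 0.21). A second noncoding RNA, lncRNA:CR44204, ran from 0.0343 to 0.469 CPM in beneficial and from 0.652 to 3.06 CPM in detrimental lines (-2.75, SE 0.63). It lies inside so on the other strand, and so itself, a transcription factor gene of eye development, differed by -0.56 (SE 0.16).

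Srg1, named as a gene regulated by the antiviral factor STING, was at 0.972 to 2.64 CPM in beneficial and 3.68 to 4.67 CPM in detrimental lines, with no overlap (-1.23, SE 0.28). It overlaps CG7016 on the other strand. CG7016, Srg1 and Elal are neighbours on chromosome 3R (BDGP6, 3R:24862931-24867651), a span of 4.72 kb. All 3 were lower in every beneficial line than in any detrimental line, with differences of -0.29 (SE 0.11) for CG7016, -1.23 for Srg1 and -0.55 (SE 0.13) for Elal. No other run of neighbouring genes appeared among the 151 genes, 68 higher and 83 lower, that had both an unadjusted p under 0.05 and no overlap. CG33509 had 1.06 to 1.82 CPM in beneficial and 2.10 to 3.87 CPM in detrimental lines (-1.17, SE 0.25). RAL409 had 0.450 CPM of CG33509, the lowest of the 10 lines.

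The authors' deposited table called 5 genes higher in beneficial lines. LysS, a lysozyme gene of the gut, had 0.547 CPM in RAL69, 5.05 in RAL93, 2.78 in RAL359 and 2.18 in RAL387, against 0.258 in RAL195, 0.428 in RAL304, 0.775 in RAL335, 0.368 in RAL737 and 0.326 in RAL819. RAL69 lay within the detrimental range, and LysS differed by 2.60 (SE 0.57). It lies inside mwh on the same strand, which differed by 0.09 (SE 0.21). CG4815 had 11.7 CPM in RAL69, 6.87 in RAL93, 2.95 in RAL359 and 11.1 in RAL387, whereas the detrimental lines lay between 2.29 and 3.26 CPM. RAL359 overlapped with them, and the CG4815 difference was 1.63 (SE 0.35). Both genes differed in the same direction without heat shock, LysS by 2.07 and CG4815 by 1.51.

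CG6788 had 7.32 CPM in RAL93 and 2.30 in RAL387, but 0.787 in RAL69 and 0.436 in RAL359, and it ran from 0.0352 to 0.553 CPM in the detrimental lines. Its difference was 3.504 (SE 0.93), and 2.31 without RAL93. RAL409 had 27.2 CPM of CG6788, the highest of all lines. The noncoding RNA lncRNA:CR45994 was at 1.91 CPM in RAL359 and at 0.419 to 0.515 CPM in the other beneficial lines, above the 0.0352 to 0.156 CPM of the detrimental lines (3.19, SE 0.62). It was 2.37 without RAL359. lncRNA:CR45994 lies inside lbk on the same strand, and lbk differed by -0.02 (SE 0.15). CG15263 was at 8.65 CPM in RAL93, 1.27 in RAL69, 0.120 in RAL387 and 0.0670 in RAL359, and at 0 to 0.0389 CPM in the detrimental lines. Too few lines reached the count filter for a test here; the authors' deposited table gave CG15263 a log2 ratio of 7.28.

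Among the genes between 0.05 and 0.1 in the authors' deposited table, Mes2, a mesoderm-expressed regulator with a MADF domain, was at 4.97 to 6.40 CPM in beneficial and 7.62 to 9.25 CPM in detrimental lines (-0.57, SE 0.12). Poc1, which encodes a centriole protein, was higher, at 83.9 to 107 CPM against 39.9 to 74.6 CPM (0.70, SE 0.16), and was apart without heat shock too. Gnmt, whose product glycine N-methyltransferase consumes the methyl donor S-adenosylmethionine, was at 42.8 CPM in RAL69, 18.3 in RAL93, 34.5 in RAL359 and 40.6 in RAL387. It was at 77.3 CPM in RAL195, 166 in RAL304, 63.0 in RAL335, 42.3 in RAL737 and 94.7 in RAL819. RAL69 and RAL737 overlapped, and Gnmt differed by -1.39 (SE 0.38), or by -0.85 without both RAL304 and RAL819. The tracheal transmembrane protein gene uif differed by -0.55 (SE 0.13), lncRNA:CR44552 by -1.44 (SE 0.36), CG7381 by -0.78 (SE 0.19), CG12674 by 0.48 (SE 0.11) and CG11131 by 1.36 (SE 0.35). TwdlD, a cuticle protein gene, was at 5.15 CPM in RAL93 and 2.07 in RAL387 but at or below 0.147 CPM in each of the other tested lines.

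The same genes were compared in separate pools of the 9 lines that had no heat shock. Of 22 genes of the 26 that could be tested without heat shock, 21 had the same sign there, DptB being the exception. Without heat shock 6 of the 26 had no overlap between classes. Both counts stand without a share over all genes. The same lines gave both sets of pools and the genes were chosen after heat shock, so the counts only describe these genes. The authors' deposited tables shared 3 genes at an adjusted p under 0.05, of 15 after and 21 without heat shock, and 4 genes at 0.1, of 26 and 28. Whether the class difference itself changed with heat shock was tested as the beneficial response to heat shock minus the detrimental one. None of 14270 genes passed in edgeR, where 42 (0.294%) had an unadjusted p under 0.05, and none passed in limma-voom or DESeq2, with 38 and 40. These fits did not pair the libraries of a line, so differences between lines stayed in their error. The share of 0.294% is far under the 1 in 20 that chance gives, so changes within lines could be missed. With line as a replicate block, which pairs each line's libraries with and without heat shock, 0 genes passed and 338 (2.37%) had an unadjusted p under 0.05. Of the 26 genes, 1 had an unadjusted p under 0.05 without the block: Mes2, whose class difference was 0.38 lower after heat shock on the log2 scale (-0.38, SE 0.16). With the line block there were 4 of the 26, against 2.37% of all genes tested. They were Mes2 (-0.40, SE 0.16), CG7381 (-0.44, SE 0.15), lncRNA:CR44754 (-0.52, SE 0.19) and CG10962 (-0.55, SE 0.23). The 26 genes were chosen on the heat shock libraries, which also enter the response difference. Their response differences are thus no separate evidence of a change with heat shock. The median 95% half-width of a response difference was 0.49 on the log2 scale, and 0.30 with the block.

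**Figure D3:**
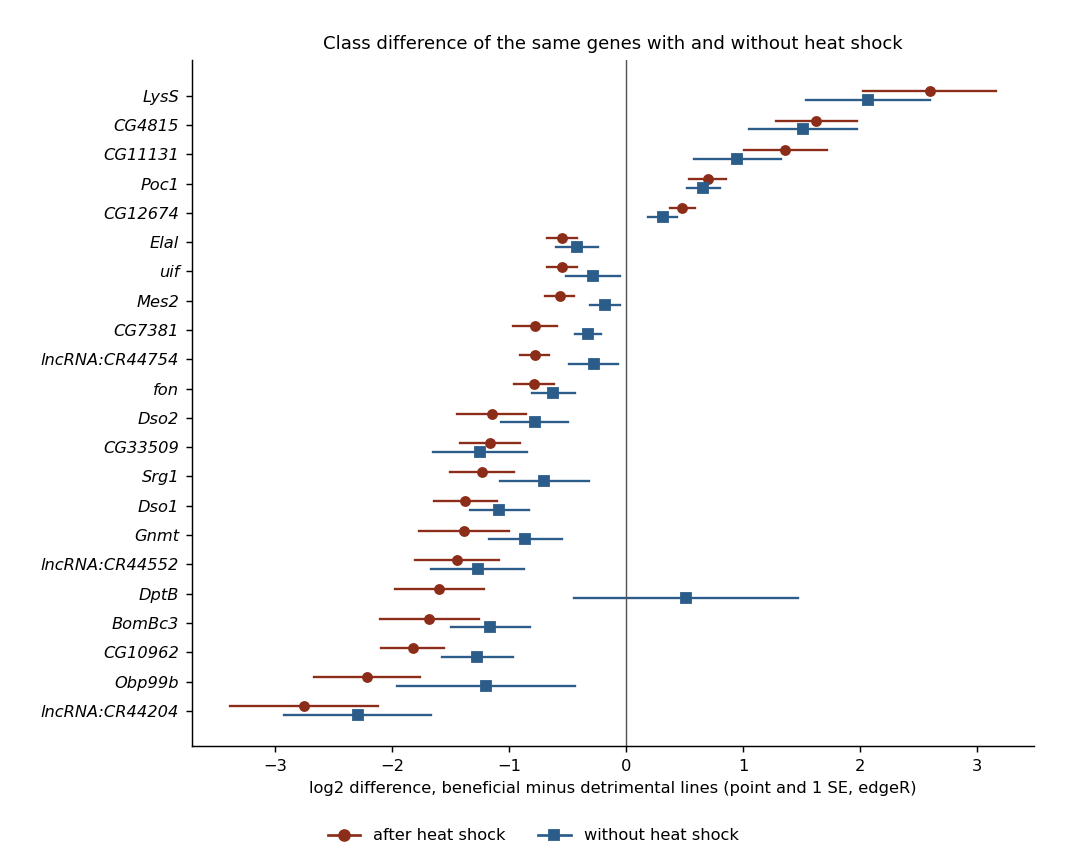
Class difference on the log2 scale after heat shock (circles) and without it (squares) for the 22 genes of the authors' deposited table (adjusted p under 0.1) that were tested under both; lines span 1 SE to each side. In 21 of the 22 genes both points lie on the same side of 0, and DptB lies at -1.60 after and 0.51 without heat shock.

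Outside the authors' deposited table, the smallest p-values among higher genes belonged to CG4880 (0.45, SE 0.11), lncRNA:CR44577 (1.22, SE 0.30) and ldbr (0.89, SE 0.22), the gene of the lariat debranching enzyme that opens excised introns. ldbr was at 2.41 to 4.58 CPM in beneficial and 1.56 to 2.26 CPM in detrimental lines. mus304, the fly partner of the DNA damage kinase ATR, was at 9.55 to 14.6 CPM against 4.63 to 8.595 CPM (0.76, SE 0.20). Tasp1, a threonine protease gene, ran from 10.6 to 27.8 CPM against 9.56 to 11.1 CPM (0.89, SE 0.22), and nsr, a regulator of spermatogenesis, from 27.2 to 39.7 CPM against 19.02 to 27.5 CPM (0.56, SE 0.14). Among the larger differences without overlap were Nnf1b, a kinetochore gene (1.29, SE 0.35), lncRNA:CR44601 (1.62, SE 0.69) and MetRS-m, the mitochondrial methionyl-tRNA synthetase gene (0.87, SE 0.25). On the lower side were CtsL3, a cathepsin of the L type (-1.395, SE 0.60), l(2)34Fc (-1.41, SE 0.38) and lncRNA:CR43285 (-1.52, SE 0.53; -0.94 without RAL819). CtsL3 was at 0.479 CPM in RAL69 and 3.55 to 7.57 CPM in the other beneficial lines, and at 7.62 to 21.8 CPM in detrimental lines, so that RAL387 and RAL737 nearly met.

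The heat shock genes themselves did not separate the classes. The 6 Hsp70 copies are nearly identical and share reads, so they were summed. They reached 41897 CPM in RAL69, 41283 in RAL93, 41042 in RAL359 and 49305 in RAL387, and 40977 in RAL195, 73966 in RAL304, 47099 in RAL335, 40430 in RAL737 and 46976 in RAL819. RAL304 stood above the other lines, which covered the same range in both classes. On the log2 scale the sums were 15.40 ± 0.13 (SD, n = 4) and 15.57 ± 0.35 (SD, n = 5; two-sided exact permutation p = 0.579). The share of counts from chaperone genes was 8.599 ± 0.27% in the beneficial lines and 9.24 ± 1.18% in the detrimental ones (SD; exact permutation p = 0.405), with 11.2% in RAL304. Of 29 chaperone genes tested, 20 had a lower and 9 a higher mean in beneficial lines, with a median of -0.06. Of them 0 had an unadjusted p under 0.05, against 4.4% of all genes tested, a share at which a list of this size holds few. The median was 0.002 without RAL304, so its sign rested on that line. Hsp68, an inducible Hsp70 relative, differed by -0.20 (95% interval -0.49 to 0.09), Hsp83, the fly Hsp90, by -0.06 (-0.29 to 0.16), the co-chaperone gene DnaJ-1 by -0.03 (-0.23 to 0.17) and the regulator Hsf by -0.13 (-0.37 to 0.12).

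Genes of the unfolded protein response were likewise close. Of 33 genes of ER folding, this response and ER-associated degradation, 21 were higher and 12 lower (median 0.03). Of them 0 had an unadjusted p under 0.05, against 4.4% of all genes tested. The median was 0.098 without RAL304 and 0.107 without both RAL304 and RAL819. With 1 line left out the number lower ran from 5 to 16. Without heat shock 5 of 33 were lower, with a median of 0.10. The sensor genes differed by -0.19 for Ire1 (95% interval -0.41 to 0.03), 0.02 for PEK (-0.27 to 0.31) and 0.22 for Atf6 (-0.28 to 0.73). The transcription factor Xbp1, spliced by Ire1, differed by 0.01 (-0.22 to 0.25), and crc, the fly ATF4, by -0.03 (-0.29 to 0.23). The ER chaperone genes Hsc70-3, the fly BiP, and Gp93 differed by -0.08 (-0.55 to 0.39) and -0.07 (-0.44 to 0.29).

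The screen behind the classes pointed its authors to histone methylation, as the series title states. Of 34 tested histone methyltransferases and partners, 18 were higher and 16 lower (median 0.01). Of 11 demethylases 5 were higher and 6 lower (median -0.03). In either list 0 genes had an unadjusted p under 0.05, against 4.4% of all genes tested. Set8, which monomethylates H4K20, differed by 0.25 (95% interval -0.01 to 0.51), and ash1, an H3K36 methyltransferase of the trithorax group, by 0.25 (-0.03 to 0.52). E(z), the H3K27 methyltransferase of Polycomb repressive complex 2, differed by 0.12 (-0.11 to 0.35), and the H3K4 methyltransferase genes Set1 and trx by 0.00 (-0.24 to 0.24) and -0.13 (-0.45 to 0.18). The H3K36 enzyme gene Set2 differed by 0.08 (-0.18 to 0.35), the H3K9 enzyme genes egg, G9a and Su(var)3-9 by -0.04, -0.04 and 0.20, Hmt4-20 by 0.09 and the H3K79 enzyme gene gpp by 0.11. Among demethylases, Kdm2 differed by -0.22 (-0.61 to 0.18), Kdm4A by 0.02 (-0.52 to 0.55), Kdm4B by -0.11, Kdm5 by -0.13, Utx by 0.05 and Su(var)3-3, the fly LSD1, by 0.06. In each of these 28 chaperone, unfolded protein response and histone methylation genes the classes overlapped. Over all genes tested the classes were apart in only 0.771% (higher) and 0.699% (lower), so this overlap is not particular to these genes. The intervals still allow differences of the size of their bounds, so equal levels are not shown.

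**Figure D4:**
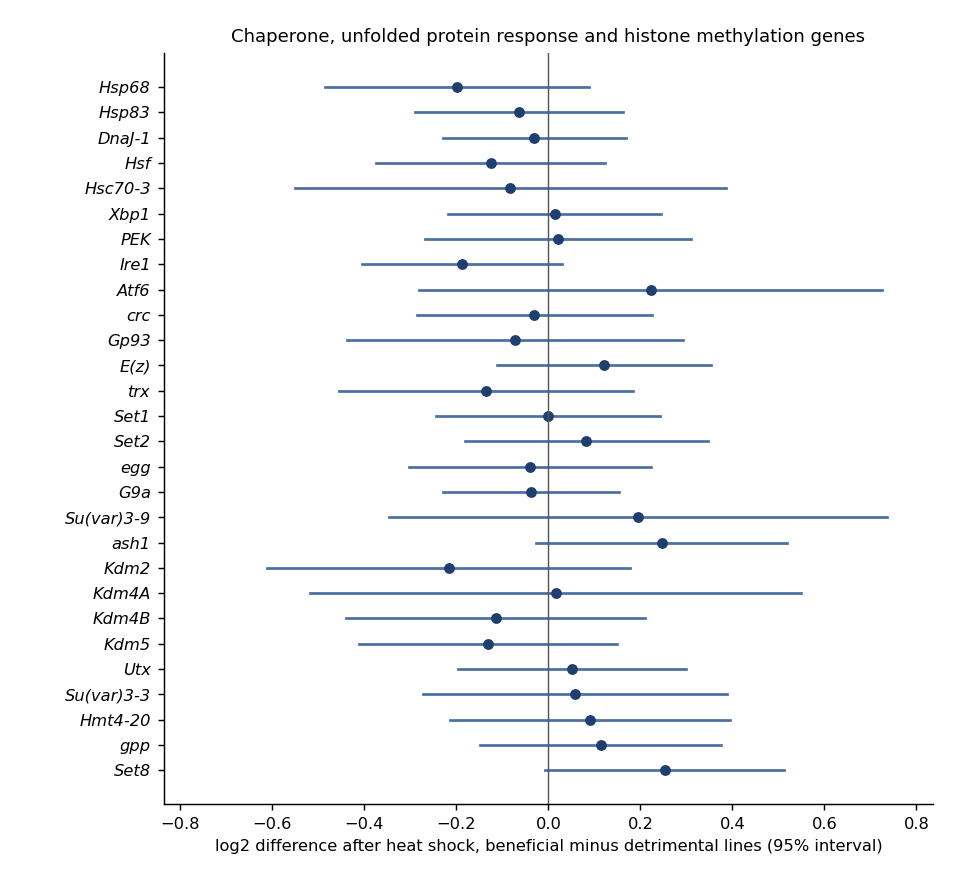
Class difference after heat shock on the log2 scale for 28 chaperone, unfolded protein response and histone methylation genes, with 95% intervals from edgeR (points are estimates; 4 beneficial and 5 detrimental lines). All 28 intervals include 0, where 4.4% of all genes tested had an unadjusted p under 0.05. Atf6, for example, runs from -0.28 to 0.73.

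Mitochondrially encoded genes were lower in beneficial lines in 14 of 15 tested (median -0.45). Of these, 4 had an unadjusted p under 0.05 in that direction, which 2.48% of all genes tested had. The 15 genes lie on 1 genome and may vary together within a pool, so these counts describe them and are no test of the list. mt:ND5, a subunit gene of complex I, had 126 CPM in RAL69, 143 in RAL93, 169 in RAL359 and 159 in RAL387, below the 236 CPM of RAL195, 194 of RAL304, 171 of RAL335, 230 of RAL737 and 183 of RAL819 (-0.45, SE 0.13). RAL359 and RAL335 nearly met. mt:ND4 (-0.81, SE 0.25), mt:ND3 (-1.002, SE 0.34) and mt:Cyt-b (-0.87, SE 0.30) overlapped between classes. Without heat shock 15 of 15 were lower (median -0.59). The share of counts from these genes was 3.13 ± 0.62% and 4.25 ± 1.69% (SD; exact permutation p = 0.246). RAL304 had 1.397%, the lowest of the 9 lines, and without it 9 members had an unadjusted p under 0.05 in the lower direction. Of the nuclear-encoded respiratory chain genes, 33 were higher and 51 lower, with a median of -0.03. That direction rested on single lines, since the median ran from -0.13 without RAL93 to 0.085 without RAL359, and the number lower from 65 to 18. In pools without heat shock 16 of 84 nuclear-encoded genes were lower, with a median of 0.06.

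Digestive enzymes of the midgut tended the other way, with 33 of 47 higher in beneficial lines (median 0.24), 7 higher and 2 lower at an unadjusted p under 0.05, against 1.92% and 2.48% of all genes. Without RAL93 there were 27 higher, with a median of 0.17. The serine protease gene Jon99Fi had 526 CPM in RAL69, 529 in RAL93, 208 in RAL359 and 335 in RAL387, against 218 in RAL195, 126 in RAL304, 83.3 in RAL335, 220 in RAL737 and 212 in RAL819. RAL359 overlapped with the detrimental lines (1.21, SE 0.34). The related Jon99Fii differed by 1.61 (SE 0.50), and the lysozyme genes LysE and LysB by 1.11 (SE 0.34) and 1.02 (SE 0.32). These paralogs are similar in sequence, so reads could be split between them. The maltase gene Mal-A4 was lower, at 21.1 to 26.4 CPM against 30.7 to 77.5 CPM, with no overlap (-0.92, SE 0.27; -0.43 without both RAL304 and RAL819). Without heat shock 13 of 46 tested midgut genes were lower, with a list median of 0.27.

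Proteasome subunit genes were higher in 47 of 48, by a median of 0.09, and cytosolic ribosomal protein genes were lower in 81 of 92, by a median of -0.08. The ribosomal shift rested on single lines, since 66 of 92 were higher without RAL359 and 46 were higher without RAL304. Only Prosbeta5R2, a proteasome subunit gene of the testis, had an unadjusted p under 0.05 in these groups (0.61, SE 0.24). Muscle genes were lower in 18 of 19 (median -0.19; -0.096 without RAL304, -0.11 without RAL359 and -0.12 with RAL409 as a beneficial line), and JNK and immediate early genes in 14 of 14 (median -0.16). With libraries scaled by totals only, the median of all genes was 0.04, and 17 of 19 and 12 of 14 were lower. Without heat shock 11 of 19 muscle genes were lower (median -0.01) and 11 of 14 JNK and immediate early genes (median -0.09). Of 16 tested trehalose, glycogen and glycolysis genes, 12 were higher and 4 lower (median 0.05). At an unadjusted p under 0.05 there was 1 on each side, against 1.92% higher and 2.48% lower of all genes. The higher one was fbp (0.31, SE 0.13). The lower one, Ldh, lactate dehydrogenase, was at 18.03 to 24.5 CPM in beneficial and 24.8 to 36.7 CPM in detrimental lines, without overlap (-0.58, SE 0.14). RAL387 and RAL737 nearly met for Ldh. RAL409 had 36.6 CPM, and with it as a beneficial line the Ldh difference was -0.39, with an unadjusted p no longer under 0.05. Of 21 insulin, FOXO and TOR genes, 10 were higher and 11 lower (median -0.03). The lower side held 2 with an unadjusted p under 0.05, against 2.48% of all genes. They were Thor, the 4E-BP translation inhibitor repressed by TOR (-0.60, SE 0.20), and Sesn, an inhibitor of TOR (-0.92, SE 0.37). Sesn was low, at 0.168 to 0.359 CPM in beneficial and 0.315 to 0.663 CPM in detrimental lines, with overlap. Glutathione S-transferase genes were lower in 20 of 35 (median -0.19) and cytochrome P450 genes in 50 of 81 (median -0.15). With 1 line left out, the glutathione S-transferase median ran from -0.38 without RAL387 to 0.009 without RAL819. The smallest P450 median in size was -0.054, without RAL304. Testis markers were higher in 21 of 27 (median 0.08; 0.15 without RAL335), and accessory gland genes in 39 of 57 (median 0.06), a sign that turned without RAL387 (-0.13).

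**Figure D5:**
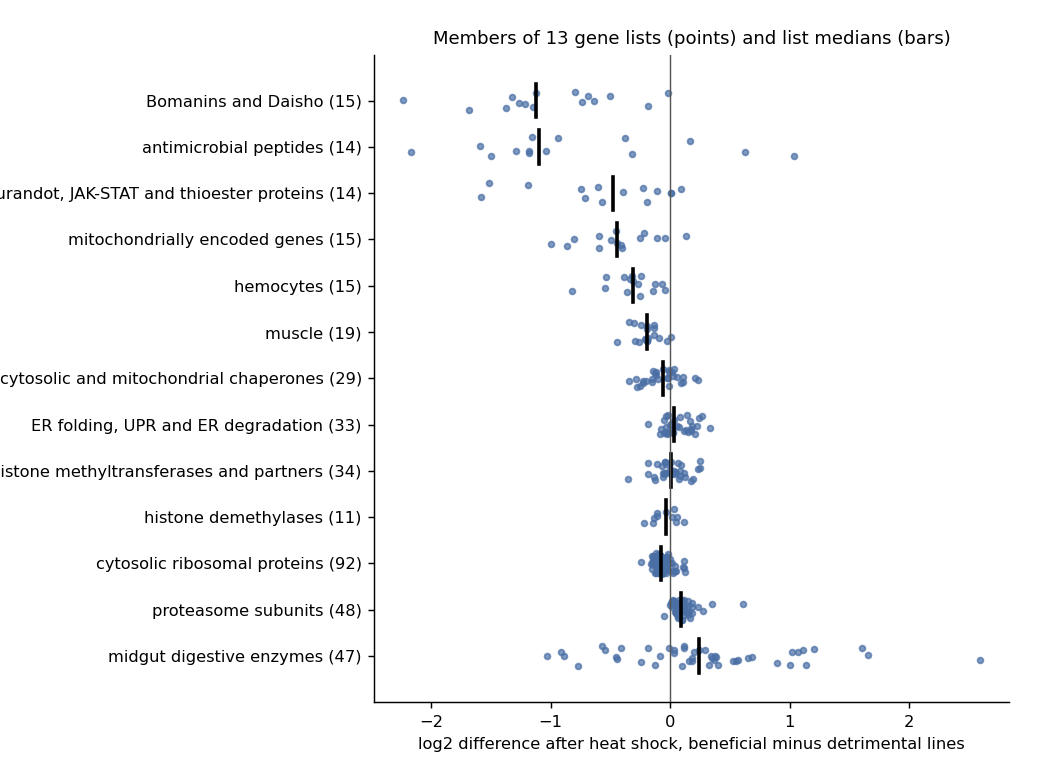
Class difference after heat shock on the log2 scale for each tested member of 13 gene lists, with the number of members in parentheses and the list median as a bar. The immune peptide lists have medians of -1.12 and -1.10, while the chaperone, ER and histone lists are centred near 0.

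The place of RAL409 was also read over all genes. Of the 204 genes without overlap between the 9 lines' classes, RAL409 was nearer to the beneficial mean in 81 (39.7%) and nearer to the detrimental mean in 123. Over all 13877 genes it was nearer to the beneficial mean in 42.5%. Of the authors' 26 genes it was nearer to the detrimental mean in 18 and outside the range of the 9 lines in 10. Over all genes tested RAL409 was outside that range in 24.8%, and over the 204 without overlap in 24.5%. The 151 genes with an unadjusted p under 0.05 and no overlap were spread over the chromosomes, with 22 on X, 24 on 2L, 26 on 2R, 37 on 3L and 41 on 3R, against 2141, 2690, 2750, 2695 and 3374 genes tested there.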

How the data were processed

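The authors deposited raw counts per FlyBase gene (17807 genes, 20 libraries, stranded mRNA kit per the labels). Their deposited tables of class comparisons hold log2 ratios, p-values and adjusted p-values. The submitters' processing notes name DESeq2 1.28.1, SAMtools 1.12, Bowtie2 2.2.9 and the build BDGP6; the counting tool and its strand setting are not given in the sources used here. DESeq2 on the 9 libraries without a count filter differed from the deposited log2 ratios by a median of 0.00122.

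Classes were compared with edgeR 4.0.16 in R 4.3.3 (filterByExpr, TMM scaling, quasi-likelihood test, two-sided, Benjamini-Hochberg adjustment over all genes tested, threshold 0.05). P-values called unadjusted come from this test. CPM are counts per 1e+06 TMM-scaled counts. DESeq2 1.42.0 and limma-voom (limma 3.58.1), other scalings and filters, RAL409 included and each line left out were alternatives. The same inbred line gave both libraries of a pair, so a fit with line as a block stands beside the response difference. Single values were tested by exact permutation of 9 lines, whose smallest p is 0.00794. Symbols and positions came from Ensembl 115 (BDGP6; 17710 of 17807 identifiers matched). The tests were tried on simulated counts. Totals of 18.4 to 33.7 M per library limit counting error only.

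Genes named were those of the authors' table, the smallest p and largest differences here with a mean of at least 1 CPM, up to 3 members per list with an unadjusted p under 0.05, and 28 stress and histone genes. Further list members, and genes overlapping or neighbouring a named gene, were picked after their values were seen. The members, the 42 gene lists and the naming rule were chosen with earlier results of these data known.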

Additional observations from a re-analysis of the deposited data

Results flagged for a closer look

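Of 60 groups of 4 or 5 lines checked for a line far from the others, 7 held one; chance gives about 1 in 20. In lncRNA:CR44754 RAL359 was at 6.97 CPM, below 8.52 CPM in the nearest beneficial line. In lncRNA:CR45994 RAL359 was at 1.91 CPM, with 0.515 CPM next, and in CG15263 RAL93 was at 8.65 CPM, with 1.27 CPM next. The summed Hsp70 level reached 49305 CPM in RAL387 among beneficial lines and 73966 CPM in RAL304 among detrimental lines. Chaperone genes took 8.999% of counts in RAL387, with 8.497% in the nearest beneficial line. RAL737 had the smallest detrimental library, 18.4 M counts against 26.9 M in the nearest.

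RAL409, which entered no test, exceeded the highest of the 9 lines by 2-fold or more in 2 of the authors' 26 genes. It had 22.6 CPM of DptB, where the highest tested line had 3.95 CPM, and 27.2 CPM of CG6788, where the highest had 7.32 CPM.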

How the results depend on the processing

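After heat shock 0 genes passed an adjusted p of 0.05 in every edgeR and limma-voom setting run, whereas DESeq2 called 11. Without a count filter DESeq2 called 12 on the 9 libraries, 18 in a fit of both treatments and 5 with RAL409. Without heat shock the counts were likewise 0 except for DESeq2, with 17, and the response difference gave 0 in every setting, with line as a replicate block included; no other call changed with the block. Scalings, filters, limma-voom, robust dispersions, a fit of both treatments, a threshold of 0.1, RAL409 and each line left out were run; thinning to equal totals, RAL304 and RAL819 left out together, list settings and DESeq2 without a filter were added after seeing the data. Over 120 named genes, 2443 of 2496 values kept their direction and 53 did not, in 20 genes, and 11 genes passed under DESeq2 only. The cause of these reversals was not tested; most are estimates near 0.

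With RAL409 included the log2 differences were 0.90 for DptB, 0.15 for AttB, 0.12 for AttA, 0.0083 for DnaJ-1, -0.0058 for Xbp1 and -0.020 for Su(var)3-3. With library totals only they were 0.0082 for DnaJ-1, 0.010 for crc, 0.040 for Set1, 0.0043 for egg and 0.0027 for G9a. Without RAL304 and RAL819 they were 0.0080 for Hsp83, 0.0086 for DnaJ-1, 0.091 for Hsc70-3, -0.017 for Atf6, 0.015 for crc, 0.19 for Gp93, 0.045 for Set1, 0.011 for egg and 0.011 for Kdm2. Set1 was 0.0071 with upper-quartile scaling, 0.0032 without a filter, 9.75e-05 with at least 1 CPM in 4 libraries, 0.0019 in a fit of both treatments and 0.0029 in thinned libraries, where egg was 0.011. The TwdlD response difference was 0.26 with line as a replicate block.

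With each line left out in turn the range was -0.079 to 0.0021 for DnaJ-1, -0.20 to 0.12 for Hsc70-3, -0.034 to 0.068 for Xbp1, -0.042 to 0.12 for PEK, -0.10 to 0.059 for crc, -0.15 to 0.027 for Gp93, -0.082 to 0.069 for Set1, -0.051 to 0.14 for Set2, -0.12 to 0.038 for egg, -0.15 to 0.15 for Kdm4A, -0.016 to 0.14 for Utx, -0.080 to 0.12 for Su(var)3-3 and -0.016 to 0.18 for Hmt4-20.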
